A study of Peromyscus maniculatus with 6 samples.

Results

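The genes described here encode chaperones and proteases of the mitochondrion, followed in deer mouse fibroblasts after 5 h of tunicamycin. They were taken by symbol, as every row of the deposited count table named for one of 10 listed genes, whatever its expression. Of the 10 symbols, 7 matched a row, out of 24281 genes in the table and 18029 with a name, and these were Trap1, Dnaja3, Lonp1, Clpp, Clpx, Afg3l2 and Yme1l1. Hspd1, Hspe1 and Hspa9 matched no name and were not analysed here. The libraries came from primary fibroblasts of ear punches of Peromyscus maniculatus, BW stock, from animals of 4 weeks. Each of 3 animals (BW35770, BW35772 and BW35773) gave 1 control library and 1 library from cells treated with tunicamycin, 6 in all, and no genetic change is given for any of them. Plating for 24 h at 300000 cells per well is given for control and treated samples alike. Treated cells then received tunicamycin at a concentration that the labels state as 5 mg per mL, which could not be checked from the files. The treatment of the control wells was not given in the sources used here. Each culture is 1 animal's outgrowth, so the replicates are animals.

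Nearly all mitochondrial proteins are made in the cytosol, cross the mitochondrial membranes unfolded and must fold inside. Chaperones of the matrix assist that folding, and ATP-driven proteases of the matrix and inner membrane remove what fails. When damaged proteins build up there, animal cells can raise several of these genes, a program called the mitochondrial unfolded protein response, in which the transcription factors ATF5, CHOP and ATF4 have been placed. ATF4 and CHOP also act downstream of stress in the endoplasmic reticulum (ER). Tunicamycin causes such ER stress, since it stops N-linked glycosylation of new proteins at its start. The comparison of treated with control libraries therefore shows where the mitochondrial chaperones and proteases stood while the ER was under stress.

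The table places the genes on scaffolds whose genome build was not given in the sources used here. Trap1 (ENSPEMG00000023888, KI615553.1, bases 5287441 to 5319880, 18 exons) and Dnaja3 (ENSPEMG00000023880, KI615553.1, bases 4625582 to 4654171, 12 exons) lie 633.3 kb apart with 8 genes between them. Lonp1 (ENSPEMG00000020753, KI615491.1, bases 1115138 to 1126826, 18 exons) and Clpp (ENSPEMG00000009546, KI615491.1, bases 1558360 to 1564098, 6 exons) share another scaffold, 431.5 kb apart with 14 genes between them. Clpx (ENSPEMG00000021528, 14 exons), Afg3l2 (ENSPEMG00000010527, 17 exons) and Yme1l1 (ENSPEMG00000022499, 15 exons) each lie on a scaffold of their own. None of the 7 overlaps another gene of the table, and each has 1 ID. The end of Lonp1 lies 47 bases from Rpl36 and that of Trap1 55 bases from Dnase1, both on the opposite strand, so that reads running past a gene's end would be kept apart only by strand.

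Libraries held 37852385 to 49352126 counts on genes, and every one of the 7 genes had at least 1401 counts in every library. All 7 passed the filter on low counts, which kept 13503 genes. Of 9 fibroblast markers in the table all reached 1 CPM (the CPM unit gives a count relative to the TMM-scaled total of its library), with a summed level of 13690 to 17760 CPM in controls and 13670 to 15900 CPM in treated libraries. Vim alone stood at 7494 to 9763 CPM, and some of the other markers differed between animals. Thy1 held 751.8 (control) and 827.3 CPM (treated) in BW35770 and 58.05 to 118 CPM in the other animals. Col3a1 held 499.9 and 420 CPM in BW35770 and 1052 to 1482 CPM in the others. Of 7 immune markers only Cd68 reached 1 CPM (68.6 to 175.2 CPM), and Cd3e and Tyrobp were at 0 in every library. Of 7 keratinocyte markers only Krt14 reached 1 CPM. It was lower in the treated library of each animal, by log2 differences of -1.005, -1.19 and -0.90 (edgeR's adjusted p = 0.622, and 0.02 with the animal as a block), with a summed marker level of 5.55 to 23.1 CPM in controls and 3.41 to 13.2 CPM in treated libraries, and its part in the results was not tested. Chondrocyte markers were present, with a summed level of 1896 to 8424 CPM in controls and 2110 to 8981 CPM in treated libraries. Col2a1 held 742.6 (control) and 842.4 CPM (treated) in BW35770 and 4095 to 6260 CPM in the other animals. The fibroblast marker Col1a1 held 1107 and 1665 CPM in BW35770 and 2555 to 3570 CPM in the others, where it stood below Col2a1 in every library. In bulk RNA, fewer cells of a type and less RNA per cell cannot be told apart.

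After 5 h of tunicamycin 0 of the 7 mitochondrial chaperones and proteases had risen and 0 had fallen. A gene was called where its edgeR quasi-likelihood p, with Benjamini-Hochberg adjustment across the 13503 tested genes, was under 0.05. By that rule 2.58% of all tested genes were called, 1.78% as higher. With the animal as a block in the fit the count was again 0 of 7, where 5.47% of all genes were called and 3.07% as higher. DESeq2 called 0 of 7 (9.03% of the 11928 genes to which it gave an adjusted p) and limma-voom 0 of 7 (2.38% of all tested genes). At an unadjusted edgeR p under 0.05, 2 of the 7, Dnaja3 and Lonp1, stood higher, and 8.88% of all genes did so. The median log2 fold change of the 7 was 0.02, beside -0.01 over all tested genes. The 95% intervals of the log2 fold changes ran from -0.57 (lower bound, Clpp) to 0.88 (upper bound, Dnaja3), so that a log2 change of 1 lay outside every one of them. A p that misses the threshold does not show that a gene did not change. The intervals are not adjusted for the number of genes tested. Those of Dnaja3 and Lonp1 lay above 0, which restates their unadjusted edgeR p under 0.05.

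**Figure D1:**
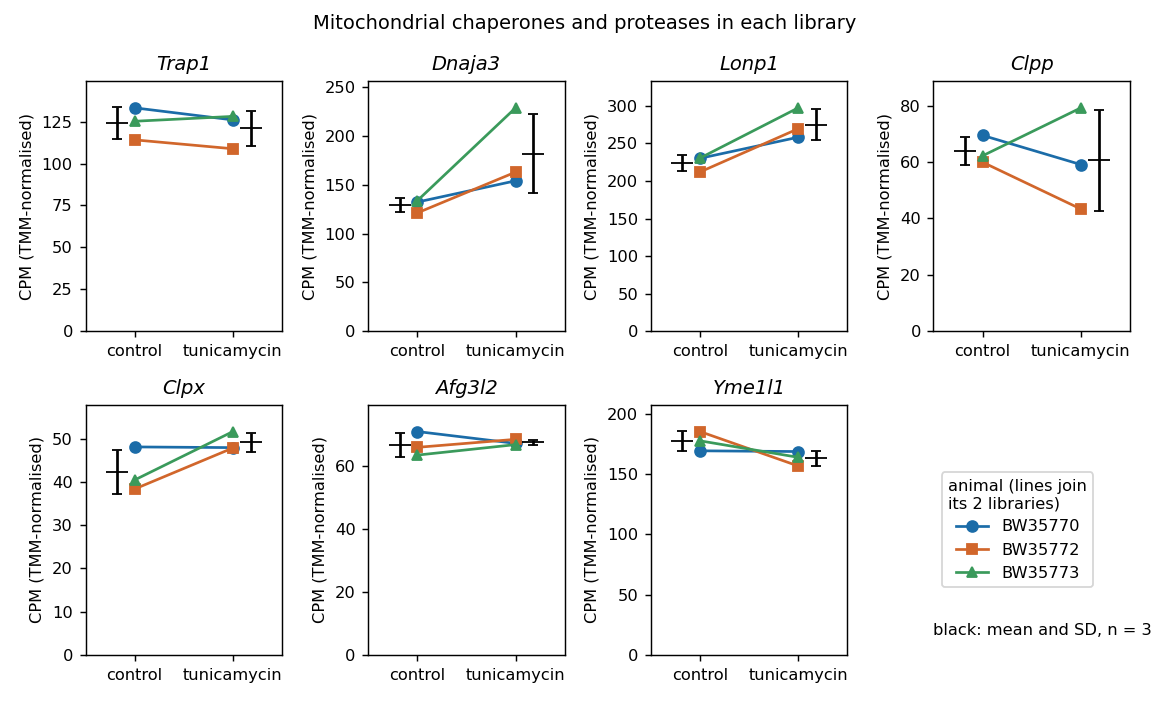
Level of each gene in each library, in TMM-normalised CPM (vertical axes start at 0), with lines joining the control and tunicamycin libraries of an animal and black bars for mean and SD (n = 3). Treated libraries lie above all controls for Dnaja3 and Lonp1 and, on this TMM scale but not with 3 other scalings, below them for Yme1l1, and the groups overlap for the other genes.

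The set holds 2 matrix chaperones, Trap1 and Dnaja3, neither of which was called. Trap1 encodes the HSP90 of mitochondria. It stood at 133.2, 114.1 and 125.2 CPM in the controls of animals BW35770, BW35772 and BW35773, and at 126.0, 108.8 and 128.1 CPM in their treated libraries. The groups overlapped, and each treated library was close to its own control. The log2 fold change of Trap1 was -0.04 ± 0.12 (SE, edgeR's adjusted p = 0.935, n = 3), with a 95% interval of -0.31 to 0.24. Its sign depended on the scaling, being 0.02 with library totals alone.

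Dnaja3 encodes a J-protein of the matrix (also known as TID1) that hands clients to the mitochondrial HSP70. Its controls lay close together, at 132.4, 121.3 and 133.8 CPM. Treated libraries stood at 154.2, 163.1 and 229.0 CPM in the same order of animals, all above every control. The mean went from 129.2 ± 6.87 to 182.1 ± 40.9 CPM (SD, n = 3), with a fitted log2 fold change of 0.50 ± 0.17 (SE, edgeR's adjusted p = 0.2). Within animals BW35770, BW35772 and BW35773 the log2 difference of Dnaja3 was 0.22, 0.43 and 0.78, so that the treated library of BW35773 held the largest of them. Without that library the log2 fold change was 0.32 (edgeR adjusted p = 0.14). With the animal as a block the edgeR adjusted p of Dnaja3 was 0.0957, and DESeq2 with the same block called it higher (log2 fold change 0.49, adjusted p = 0.0237). That rule, added after seeing the data, called 11.2% of the 11932 genes to which it gave an adjusted p, and 1 of the 7.

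These changes were set against homologues in other compartments, as log2 ratios within each library, which do not depend on how libraries are scaled. The HSP90 of the ER, Hsp90b1, had a log2 fold change of 0.65 ± 0.14 (SE, edgeR's adjusted p = 0.062, and 0.0324 with the animal as a block). The log2 ratio of Trap1 to Hsp90b1 was -3.54, -4.06 and -3.80 in controls and -4.48, -4.61 and -4.41 in treated libraries, in the order of animals. It was thus lower in all 3 animals, by 0.94, 0.55 and 0.61, and the groups did not overlap (exact two-sided permutation p = 0.1, n = 3 against 3, the smallest this design allows; adjusted p = 0.167 over 5 ratios). Dnaja1, a cytosolic J-protein of the same class as Dnaja3, fell by 0.70 ± 0.13 on the log2 scale (SE, edgeR's adjusted p = 0.0383), a call that was lost without any of the 6 libraries (adjusted p = 0.053 to 0.16) and was 0.013 with the animal as a block. The log2 ratio of Dnaja3 to Dnaja1 went from -0.65 ± 0.09 in controls to 0.53 ± 0.44 with tunicamycin (SD, n = 3), higher in 3 of 3 animals. The difference of 1.18 had an exact two-sided permutation p = 0.1 (adjusted p = 0.167), again the smallest possible with n = 3 against 3. The pair was added after both genes' values had been seen, so the ratio is a description of these 2 genes. Other J-proteins of the same compartments had smaller or opposite differences, with log2 fold changes of -0.22 ± 0.12 for the cytosolic Dnaja2 and -0.34 ± 0.21 for the mitochondrial Hscb (SE, edgeR's adjusted p = 0.442 and 0.518). They too were picked with values known.

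**Figure D2:**
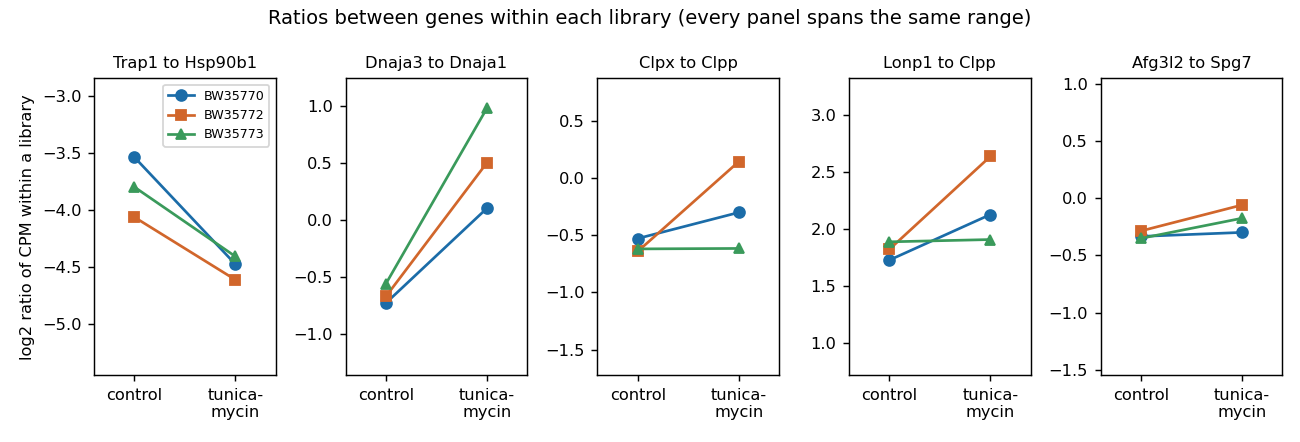
Log2 ratio of CPM between genes within each library, with lines joining the control and tunicamycin libraries of an animal; every panel spans the same range. Trap1 to Hsp90b1 is lower and Dnaja3 to Dnaja1 higher in all 3 treated libraries than in any control, and the ratios to Clpp spread in treated libraries.

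The soluble proteases of the matrix are LON, a single-chain ATPase and protease encoded by Lonp1, and the CLPXP complex, in which CLPX unfolds proteins and feeds them to the peptidase CLPP. Lonp1 is a known target in stress responses that run through ATF4. Its controls held 230.1, 211.9 and 230.4 CPM and its treated libraries 258.2, 269.5 and 297.3 CPM, so that the groups did not overlap. Lonp1 went from 224 ± 10.6 to 275.0 ± 20.1 CPM (SD, n = 3), with a fitted log2 fold change of 0.30 ± 0.11 (SE, edgeR's adjusted p = 0.261, and 0.183 with the animal as a block). The within-animal log2 differences of Lonp1 were 0.17, 0.35 and 0.37. They had 1 sign in all 3 animals and a smaller spread (SD 0.11) than those of Dnaja3 (SD 0.28).

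Clpx stood at 48.1, 38.4 and 40.5 CPM in controls and at 48.0, 47.9 and 51.7 CPM with tunicamycin. Control and treated libraries of animal BW35770 were level on this TMM scale, and those of the other animals differed by 0.32 and 0.35 on the log2 scale. The fitted log2 fold change of Clpx was 0.22 ± 0.13 (SE, edgeR's adjusted p = 0.497), and the groups overlapped on the TMM scale only, of 4 scalings run.

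Clpp was the member that varied most between animals. Its controls were alike, at 69.4, 59.9 and 62.2 CPM, while its treated libraries stood at 59.1, 43.3 and 79.2 CPM. The log2 difference was -0.23 in BW35770, -0.47 in BW35772 and 0.35 in BW35773, so that the animals disagreed in sign. The fitted log2 fold change of -0.08 ± 0.21 (SE, edgeR's adjusted p = 0.924) lay between them, as did that of -0.12 with the animal as a block. It was -0.30 without the treated library of BW35773 and 0.13 without that of BW35772. The mean ratio of Clpx to Clpp went from -0.60 ± 0.06 to -0.26 ± 0.38 on the log2 scale (SD, n = 3), with within-animal differences of 0.23, 0.79 and 0.00 and overlapping groups (exact two-sided permutation p = 0.2, adjusted p = 0.2). That of Lonp1 to Clpp went from 1.81 ± 0.08 to 2.22 ± 0.37, with differences of 0.40, 0.81 and 0.02 (exact two-sided permutation p = 0.1, n = 3 against 3, adjusted p = 0.167). Both pairs were added after the data had been seen, so these ratios are descriptions. Clpp has 1011 annotated exon bases, beside 2968 for Lonp1 and 2860 for Clpx, and the part of exon length in these ratios was not tested. Without the treated library of BW35772 these differences in log2 ratio were 0.14 (Clpx to Clpp, 0.34 with all libraries) and 0.21 (Lonp1 to Clpp, 0.41 with all), and without that of BW35773 that of Clpx to Clpp was 0.52.

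The differences of Clpp between animals ran beside a trend with annotated exon length that covered all genes. With 1011 annotated exon bases Clpp is the shortest of the 7 and lies in the shortest of 5 length classes of tested genes (57 to 1089 bases), whose median log2 difference was -0.27 in BW35770, -0.41 in BW35772 and 0.14 in BW35773. In the longest class (3766 to 24148 bases) the medians were 0.12, 0.17 and -0.17, in the opposite direction in each animal. When each library's trend with exon length was removed, an alternative added after seeing the data, the log2 fold change of Clpp was 0.00 (edgeR adjusted p = 0.995), beside -0.08 in the main fit. Both values pool animals of opposite sign, so they do not speak to the differences between animals. The difference within each animal was not computed with the trend removed, and the part of exon length in it was not tested. Dnaja3, Lonp1 and Clpx, of 2635 to 2968 exon bases, lie in the range where those medians were 0.02, 0.07 and -0.06, and had log2 fold changes of 0.47, 0.26 and 0.18 with the trend removed. Of the 7, 0 were called there, beside 3.70% of all tested genes. RNA quality per library was not analysed here, beyond a statement in the labels that it passed a set score.

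**Figure D3:**
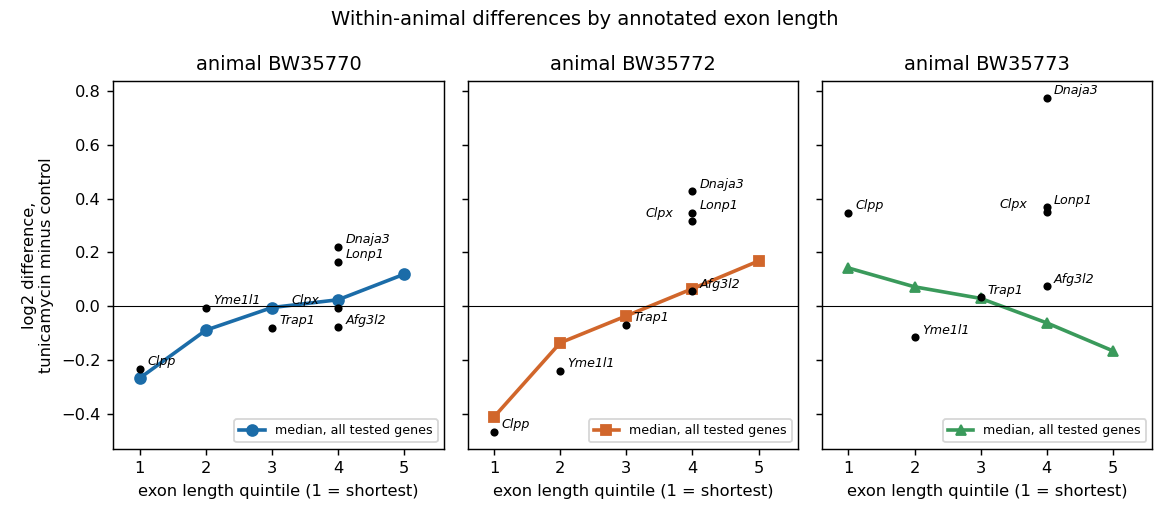
Log2 difference between the tunicamycin and control library of each animal (vertical axis) in 5 classes of annotated exon length, shortest first, with coloured lines for the median of all tested genes and black points for the 7 genes. Clpp, in the shortest class, lies near the line in BW35770 and BW35772 and above it in BW35773, while Dnaja3 and Lonp1 lie above the line in all 3 animals.

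At the inner membrane, Afg3l2 encodes a subunit of the m-AAA protease, which faces the matrix and processes other mitochondrial proteins, and Yme1l1 encodes the i-AAA protease, which faces the intermembrane space and cuts the fusion protein OPA1. Afg3l2 was close to level. Its controls held 71.1, 66.0 and 63.6 CPM and its treated libraries 67.3, 68.6 and 66.9 CPM, with a fitted log2 fold change of 0.02 ± 0.10 (SE, edgeR's adjusted p = 0.974) with a 95% interval of -0.23 to 0.26. Its sign was negative without the control of BW35773 (-0.02) and with the length trend removed (-0.02). Spg7, the partner subunit of the m-AAA protease, had a log2 fold change of -0.13 ± 0.11 (SE, edgeR's adjusted p = 0.687). The log2 ratio of Afg3l2 to Spg7 was -0.32 ± 0.03 in controls and -0.18 ± 0.12 with tunicamycin (SD, n = 3), and the groups overlapped (exact two-sided permutation p = 0.2, adjusted p = 0.2). The difference of 0.15 was 0.09 without the treated library of BW35772. This pair, too, was added after the data had been seen.

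Yme1l1 stood at 169.4, 185.4 and 177.7 CPM in controls and at 168.8, 156.8 and 164.0 CPM in treated libraries. Every treated library lay below every control on this scale, the narrowest gap being between the 2 libraries of BW35770. With library totals alone the libraries of BW35770 stood at 165.3 CPM (control) and 172.2 CPM (treated), and the groups overlapped, as they did with RLE and upper-quartile scaling. The log2 fold change of Yme1l1 was -0.12 ± 0.10 (SE, edgeR's adjusted p = 0.675), with within-animal differences of -0.01, -0.24 and -0.12. In all, the groups did not overlap for 3 of the 7 genes, 2 higher and 1 lower, beside 22.3% of all tested genes (12.3% higher and 9.98% lower). With RLE, upper-quartile or library-total scaling, alternatives added after seeing the data, it was 3 higher (Dnaja3, Lonp1 and Clpx) and 0 lower. With library totals 22.8% of all tested genes did not overlap in either direction. The share for the higher direction alone, and the shares with RLE and upper-quartile scaling, are not given here, so that these counts have no like background.

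**Figure D4:**
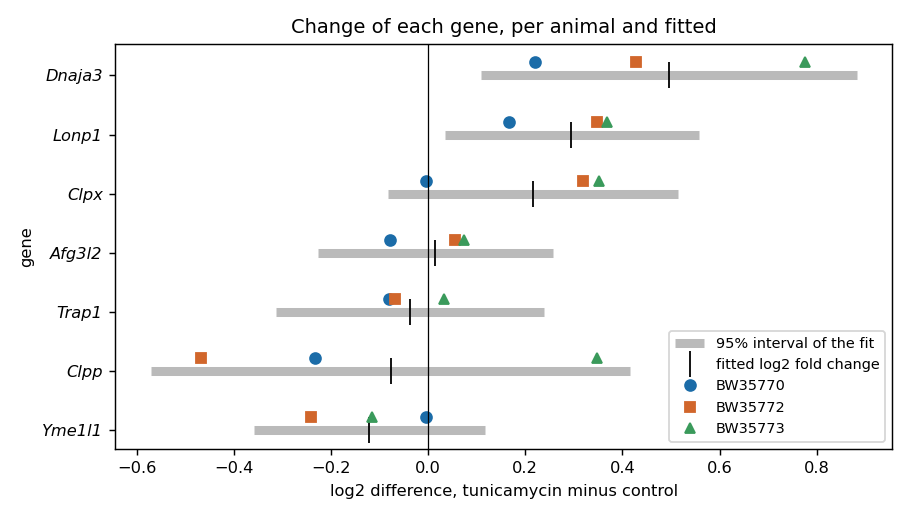
Log2 difference between tunicamycin and control for each gene: coloured points are the 3 animals, black ticks the fitted log2 fold change and grey bars its 95% interval, not adjusted for the number of genes. The intervals of Dnaja3 and Lonp1 lie above 0, those of the other 5 genes span 0, and the animals spread most for Clpp.

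Levels between genes were compared per kb of annotated exon. In controls the order was Yme1l1 (116.5 ± 5.25 CPM per kb), Lonp1 (75.5 ± 3.56), Clpp (63.1 ± 4.92), Trap1 (53.7 ± 4.14), Dnaja3 (49.0 ± 2.605), Afg3l2 (21.7 ± 1.24) and Clpx (14.8 ± 1.79), as mean ± SD over 3 libraries. In each control library every gene stood above the next in this order. Over all 6 libraries the same held for the steps from Yme1l1 to Lonp1, Lonp1 to Clpp, Dnaja3 to Afg3l2 and Afg3l2 to Clpx. Clpp stood above Trap1 in 5 of 6 libraries. Trap1 stood above Dnaja3 in 3 of 6, those being the controls, and in the treated libraries Dnaja3 (69.1 ± 15.5 CPM per kb) was above Trap1 (52.3 ± 4.56 CPM per kb). The peptidase Clpp thus had more transcript per kb than its unfoldase Clpx in every library. These levels rest on the annotated exon length, which is 1524 bases for Yme1l1. How complete the gene models are was not tested, and 49.9% of exon lengths in the table are multiples of 3, as for models without untranslated regions. Among the 7 genes this held for 2, Clpp and Yme1l1. Before division by exon length Lonp1 stood above Yme1l1 in controls, at 224.1 and 177.5 CPM.

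Among transcription factors and other genes linked to the mitochondrial unfolded protein response, 3 of 9 tested rose and 0 fell. Ddit3, which encodes CHOP, went from 22.1 ± 2.38 to 340.9 ± 95.6 CPM, with a fitted log2 fold change of 3.95 ± 0.23 (SE, edgeR's adjusted p = 0.000488). Atf4 had a log2 fold change of 2.47 ± 0.15 (SE, edgeR's adjusted p = 0.000507). Atf5, the factor most often placed upstream of mitochondrial chaperones, went from 386.3 ± 74.7 to 795.0 ± 109 CPM, with a fitted log2 fold change of 1.04 ± 0.18 (SE, edgeR's adjusted p = 0.0311). The Atf5 call was lost when the treated library of BW35770, or either control other than that of BW35770, was left out (adjusted p up to 0.17), and the adjusted p was 0.00576 with the animal as a block. The transcripts of all 3 factors were higher in each animal. With the animal as a block 3 of the 9 rose and 1 fell. The latter was Jun, a subunit of the AP-1 factor, with a log2 fold change of -0.79 ± 0.28 (SE, edgeR's adjusted p = 0.221, and 0.0222 with the block) and lower levels in all 3 animals.

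Of 11 mitochondrial matrix enzymes counted among ATF4 targets 3 rose and 0 fell (4 and 0 with the animal as a block), with a median log2 fold change of 0.25. Mthfd2, an enzyme of folate metabolism, rose by 2.27 ± 0.18 on the log2 scale (SE, edgeR's adjusted p = 0.00118). Gpt2, an aminotransferase, rose by 2.25 ± 0.16, and Pck2, the mitochondrial PEP carboxykinase, by 1.41 ± 0.13. All 3 calls held without each library in turn. Transcripts for proteins of the matrix compartment that houses LON and CLPXP thus included some that rose several-fold.

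Other genes of mitochondrial protein quality control gave few calls. For comparison, 1199 of all 13503 tested genes stood higher and 896 lower at an unadjusted edgeR p under 0.05. Of 16 other mitochondrial chaperones and assembly factors 0 rose and 0 fell in edgeR, with 2 higher and 2 lower at an unadjusted p under 0.05, 1 and 0 in DESeq2 and 0 and 0 in limma-voom. Phb, which encodes the membrane scaffold prohibitin, fell in the fit with the animal as a block (log2 fold change -0.68 ± 0.15, SE, edgeR's adjusted p = 0.0466), which was the only call of that list there. Without the block Phb was not called (edgeR's adjusted p = 0.208). The smallest edgeR p of the list without the block was that of Bcs1l, which stood higher and was not called. Its log2 fold change was 0.595 ± 0.168 (SE, edgeR's adjusted p = 0.135, and 0.0539 with the block). Of 14 other proteases and processing peptidases 0 rose and 0 fell, with 0 higher and 1 lower at an unadjusted p under 0.05, 0 and 1 in DESeq2 and 0 and 0 in limma-voom. In edgeR that gene was Immp1l, a subunit of the inner membrane peptidase, with a log2 fold change of -0.95 ± 0.23 (SE, edgeR's adjusted p = 0.0928, and 0.0268 with the block). Of 21 genes of protein import 0 rose and 0 fell, with 0 higher and 5 lower at an unadjusted p under 0.05, 0 and 1 in DESeq2 and 0 and 0 in limma-voom. Timm8b, a small chaperone of the intermembrane space, had a log2 fold change of -1.05 ± 0.28 (SE, edgeR's adjusted p = 0.119, and 0.0119 with the block). Median log2 fold changes of these lists were -0.03, -0.08 and -0.12, and 0.02, -0.07 and -0.05 with the length trend removed. Timm8b, with 546 exon bases, and Phb, with 1095, are short, and their log2 fold changes were -0.89 and -0.59 with that trend removed. In that fit Timm8b fell (edgeR's adjusted p = 0.0463), as did Immp1l (log2 fold change -0.91, adjusted p = 0.0439), so that 1 import gene and 1 protease fell, while Phb was not called (adjusted p = 0.0986).

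**Figure D5:**
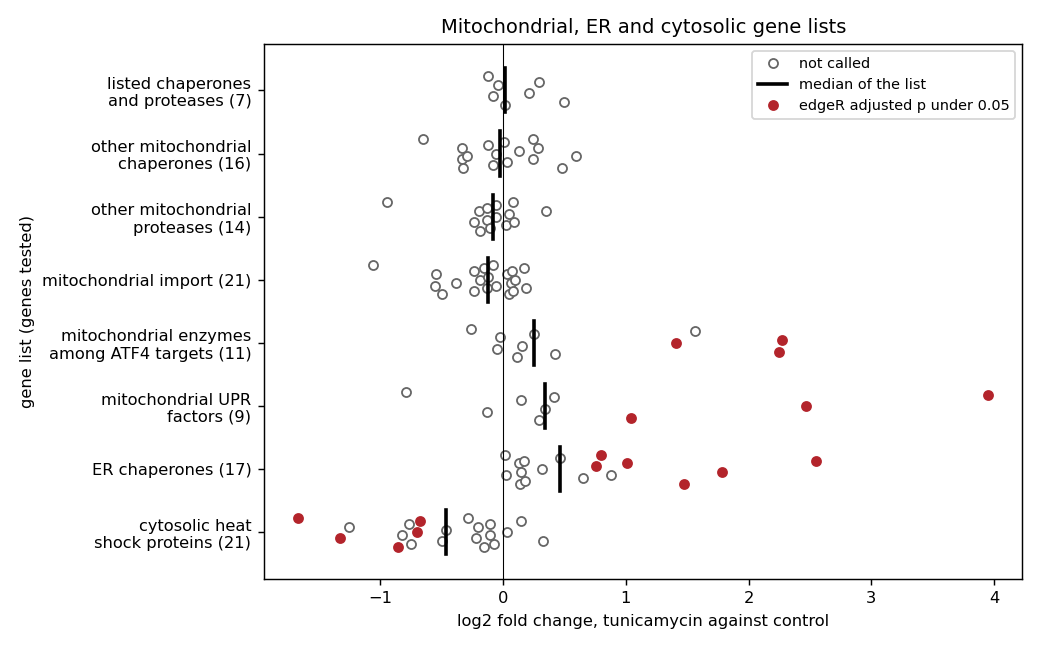
Log2 fold change of each tested gene (points, red where edgeR's adjusted p is under 0.05) in 8 gene lists, with the number tested in brackets and the median of each list as a black bar. The 7 listed chaperones and proteases lie between -0.12 and 0.50 with 0 called, while 6 ER chaperones rose and 5 cytosolic heat shock genes fell.

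Chaperones of the other compartments were read in the same way. Of 17 chaperones and co-chaperones of the ER 6 rose and 0 fell (8 and 0 with the animal as a block and in DESeq2), with a median log2 fold change of 0.46, all 17 being above 0. The ER's HSP70, Hspa5, had a log2 fold change of 1.47 ± 0.16 (SE, edgeR's adjusted p = 0.00512), and Dnajb9 and Manf had 2.55 ± 0.15 and 1.79 ± 0.23. Calls were lost for Hspa5 without the control of BW35773 (adjusted p = 0.056) and for Manf without any of the 3 controls (up to 0.089). Of 21 genes listed as cytosolic heat shock genes 5 fell and 0 rose, with a median of -0.47, and 9 fell both with the animal as a block and in DESeq2. The list includes Hspa13, an HSP70 of the ER, which had its highest log2 fold change (0.32 ± 0.13, SE, edgeR's adjusted p = 0.296). Hspa8 had a log2 fold change of -1.67 ± 0.17 (SE, edgeR's adjusted p = 0.0045), Dnajb1 -1.33 ± 0.10 and Stip1 -0.67 ± 0.12, the call for Stip1 being lost without any 1 of 5 libraries (adjusted p up to 0.19). Of the cytosolic chaperonin, Cct3 (log2 fold change -0.25 ± 0.13, edgeR adjusted p = 0.421) and Tcp1 (0.05 ± 0.14, 0.923) were not called, among 3 subunits tested. The lists share all 6 libraries, and the medians of the lists were not tested against each other.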

How the data were processed

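RNA was measured in 6 libraries of deer mouse ear fibroblasts. The authors deposited raw read counts in 1 table of 24281 genes, as whole numbers. Alignment used STAR 2.6.1 and SAMtools 1.6 and counting used featureCounts, per the submitters' processing notes. The build, annotation and treatment of multi-mapping reads were not given in the sources used here, and the table's title is the only statement that counting used strand. Exon length is the deposited sum of exon bases, an annotation value.

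Genes were kept by filterByExpr (minimum count 10, minimum total 15) and scaled by TMM, and 3 treated were compared with 3 control libraries by the edgeR 4.0.16 quasi-likelihood test in R 4.3.3 (two-sided, Benjamini-Hochberg over 13503 genes, threshold 0.05). Intervals (95%) use that test's degrees of freedom, and the SE is the log2 fold change over the square root of F. Within-animal differences are of log2 CPM (prior count 2). Alternatives were DESeq2 1.42.0, limma-voom (limma 3.58.1), other scalings and filters, the animal as a block, and libraries or animals left out. Sample titles name the animal, and deviations from group means correlated at 0.66, 0.41 and 0.22 across genes within the 3 pairs. The steps were tested on simulated data. P-values of the fits without a block rest on the spread between libraries of a group, each from another animal's culture, and leave the pairing by animal unused. Those with the animal as a block rest on the spread of the differences within animals. Exact permutation p-values can go no lower than 0.1 with 3 against 3 libraries.

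The genes, lists and ratios were chosen with earlier results of these data known. Other genes named are, per list, up to 3 with the smallest p among those called with or without the block, or 2 uncalled ones where none was. Bcs1l was named besides, as the gene of smallest p in its list without the block. Of 6 ratios first drawn up, 5 need a gene with no named row and were not computed, and 4 were added after seeing the data. Lists were drawn by symbol, and mitochondrially encoded genes matched no name.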

Additional observations from a re-analysis of the deposited data

How the results depend on the processing

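The count of called members was 0 higher and 0 lower under each of 20 alternatives, except 1 higher (Dnaja3) with DESeq2 and the replicate block. Over all genes, 241 were called higher and 107 lower. These counts were 676 and 401 with DESeq2, 415 and 324 with the replicate block, 709 and 622 with DESeq2 and the replicate block, and 728 and 752 with the replicate block and the length trend removed. With the length trend removed and no block 300 were higher and 199 lower. Leaving out 1 library gave 46 to 313 higher and 15 to 251 lower, in fits with no block. With the replicate block, leaving out animal BW35770, BW35772 or BW35773 gave 74, 497 and 806 higher and 37, 451 and 826 lower. Member directions reversed for uncalled genes near 0: leaving out 1 library gave log2 fold changes of -0.297 to 0.128 for Clpp (0.128 without the treated library of BW35772), -0.067 to 0.046 for Trap1 (0.015 without the control of BW35770, 0.046 without the treated library of BW35772) and -0.02 to 0.06 for Afg3l2 (-0.02 without the control of BW35773). In the replicate block without BW35772, Clpp was at 0.057 and Afg3l2 at -0.003. With library totals only, Trap1 was at 0.02. With the length trend removed Afg3l2 was at -0.023, and at -0.022 with the replicate block as well. Dnaja3 ran from 0.32 to 0.60, Lonp1 from 0.26 to 0.36, Clpx from 0.17 to 0.34 and Yme1l1 from -0.18 to -0.06, each with 1 sign throughout. All 5 ratios kept their sign in 40 refits, but 4 of the ratios had been added after seeing the data. The refits paired by animal repeat the main difference by construction, and a prior count of 0.5 left it almost unchanged. Signs could thus change only where a library was left out. Leaving out the treated library of BW35772 cut Clpx to Clpp from 0.34 to 0.14, Lonp1 to Clpp from 0.41 to 0.21 and Afg3l2 to Spg7 from 0.15 to 0.09. Paired by animal, each ratio had an exact sign-flip p = 0.25, the smallest that 3 pairs allow. Each member had at least 1401 counts per library, and 3 animals limit the precision.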

Other observations

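Of 52 nuclear-encoded subunits of the respiratory chain and ATP synthase 0 rose and 0 fell in edgeR, with 0 higher and 5 lower at an unadjusted p under 0.05, 0 and 1 in DESeq2 and 0 and 0 in limma-voom, and 45 of 52 had a log2 fold change below 0. Of all 13503 tested genes 896 were lower at that unadjusted p, and 6948 had a log2 fold change below 0. The median within-animal log2 difference of the 52 was -0.36 in BW35770, -0.58 in BW35772 and 0.17 in BW35773, the same order of animals as for Clpp. These genes have short annotated exon lengths (median 686 bases, beside 2109 over all tested genes), and the median log2 fold change of the list was -0.17, and -0.05 with the length trend removed. Atp5g3, a subunit of ATP synthase, had a log2 fold change of -0.83 ± 0.18 (SE, edgeR's adjusted p = 0.0683, 0.0209 with the replicate block, and 0.0131 with the length trend removed), and was the 1 gene of the list called in each of the latter fits. Of 64 mitochondrial ribosomal proteins 0 rose and 0 fell, with 4 higher and 2 lower at an unadjusted p under 0.05, 0 and 1 in DESeq2 and 0 and 0 in limma-voom. Mrpl27 among them had -0.73 ± 0.18 (SE, edgeR's adjusted p = 0.102, and 0.0342 with the block).

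Among 13 genes of mitochondrial DNA upkeep and biogenesis 1 rose and 0 fell. This was Twnk, the helicase of mitochondrial DNA, which went from 37.0 ± 3.54 to 63.8 ± 3.93 CPM (SD, n = 3), with a fitted log2 fold change of 0.79 ± 0.12 (SE, edgeR's adjusted p = 0.0211, and 0.0116 with the block). Its within-animal log2 differences were 0.73, 0.85 and 0.78. The call was lost when any 1 control, or the treated library of BW35770, was left out (adjusted p up to 0.13). Of 12 genes of fusion, fission and mitophagy 0 rose and 0 fell, with 0 higher and 1 lower at an unadjusted p under 0.05 and 0 in DESeq2 and limma-voom. The smallest p-values there were those of Fundc1 (log2 fold change -0.41 ± 0.13, edgeR adjusted p = 0.191) and Mff (-0.24 ± 0.13, 0.452).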
